A study of Homo sapiens with 4 samples.

Results

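NCOA7, RABGAP1L and ADAR are genes from which interferon is known, or has been reported, to draw a particular transcript, and exon arrays can show which stretch of a gene changes. They were followed along their exon-level probesets in T-47D cells given a microRNA mimic. The 3 genes were read by 92 probesets, 26 for NCOA7, 39 for RABGAP1L and 27 for ADAR, of 216780 probesets that carry exactly 1 gene symbol and 232479 in the table. Members were all probesets whose listed symbol is exactly 1 of these names, taken in identifier order. The genes were chosen with the change between mimic and control arrays already in view, so their values on that change are given as a description, with no test.

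One group was 2 arrays of T-47D cells that received the artificial microRNA p-27-5p as a mimic at 200 nM, and the other was 2 arrays of the same line that received a pre-miR negative control. T-47D is an established line of hormone receptor-positive breast cancer, grown in DMEM with 10% serum, and both groups received TurboFect, the transfection reagent. The labels give no dose for the control, no time to harvest and no mimic sequence. Whether both arrays of each group derive from different cultures is not stated, so the scatter behind each p-value is that of the arrays and may be technical alone.

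NCOA7 makes a long nuclear receptor coactivator and a short interferon-inducible protein that starts from an internal promoter and keeps the carboxy-terminal TLDc domain. The short protein binds the V-ATPase, the proton pump that acidifies endosomes, and limits viruses that enter through them. RABGAP1L is a TBC domain protein that turns off Rab GTPases of membrane traffic and has been described to restrict viruses that enter by endocytosis. ADAR edits adenosine to inosine in double-stranded RNA. Its constitutive nuclear form and its longer interferon-inducible form start at different promoters and share most of their exons, and editing keeps a cell's own RNA from triggering RNA sensors.

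RefSeq start windows of the 3 genes show where such transcripts could begin. All 3 genes were found by symbol in the GRCh38.p14 table, which gives 250 bases before and 50 bases after each annotated start, with 3 windows for NCOA7, 8 for RABGAP1L and 3 for ADAR. The letters GAAA, any 2 bases and GAAA again, the core of the interferon-stimulated response element read by interferon regulatory factors, were searched on both strands, and overlapping matches were counted. They occurred in 3.57% of all 35116 windows and in at least 1 window of 4.38% of 27305 genes. Of 31 listed interferon-stimulated genes with a window, 21 held them. Of the 14 windows of the 3 genes, 2 held them, and both matches were on the gene's own strand.

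For NCOA7 and RABGAP1L, the outermost window and the window with a match are printed because they set the outer start of the gene against an internal one. Each is 1 strand 5′ to 3′, with the match in capitals.
NCOA7, first of its windows, chr6:125780865-125781164, plus strand, GRCh38.p14: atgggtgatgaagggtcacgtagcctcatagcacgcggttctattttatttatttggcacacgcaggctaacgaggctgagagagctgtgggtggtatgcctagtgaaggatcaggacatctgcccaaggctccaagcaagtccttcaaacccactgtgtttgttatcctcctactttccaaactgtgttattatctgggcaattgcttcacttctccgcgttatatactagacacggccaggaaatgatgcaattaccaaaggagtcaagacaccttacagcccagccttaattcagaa
NCOA7, last of its windows, chr6:125919005-125919304, plus strand, GRCh38.p14: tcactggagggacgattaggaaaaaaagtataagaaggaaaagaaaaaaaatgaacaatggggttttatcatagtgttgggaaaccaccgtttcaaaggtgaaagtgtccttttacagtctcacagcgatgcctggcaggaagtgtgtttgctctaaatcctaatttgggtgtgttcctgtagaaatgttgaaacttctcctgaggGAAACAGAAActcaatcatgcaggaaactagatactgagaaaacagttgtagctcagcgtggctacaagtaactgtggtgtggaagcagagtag
RABGAP1L, first of its windows, chr1:174159270-174159569, plus strand, GRCh38.p14: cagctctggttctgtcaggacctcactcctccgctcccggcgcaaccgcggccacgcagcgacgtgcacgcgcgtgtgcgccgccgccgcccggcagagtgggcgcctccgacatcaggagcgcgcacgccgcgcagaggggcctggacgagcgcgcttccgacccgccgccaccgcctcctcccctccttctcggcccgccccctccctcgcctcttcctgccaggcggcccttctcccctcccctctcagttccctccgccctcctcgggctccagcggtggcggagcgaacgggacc
RABGAP1L, sixth of its windows, chr1:174874169-174874468, plus strand, GRCh38.p14: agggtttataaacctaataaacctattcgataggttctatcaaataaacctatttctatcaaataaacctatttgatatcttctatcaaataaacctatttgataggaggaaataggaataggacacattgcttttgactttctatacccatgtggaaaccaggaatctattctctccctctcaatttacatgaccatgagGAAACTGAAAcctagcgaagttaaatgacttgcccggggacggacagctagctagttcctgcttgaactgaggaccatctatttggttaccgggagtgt

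In NCOA7 the match GAAACAGAAA lay from base -44 to base -35 relative to a start 138140 bases inside the outermost start. In RABGAP1L the match GAAACTGAAA lay from base -49 to base -40 relative to a start 714899 bases inside the outermost start. In NCOA7, G and C made up 41.3% of the window with the match, 47.0% of the outermost one and 76.3% of the one between. In RABGAP1L they made up 38.0% of the window with the match and 75.3% of the outermost one. In its other windows they made up 31.3% to 50.3%, so a low share was not particular to the match. None of the 3 ADAR windows held these letters, which says only that the letters are not in those windows. A match is a description of the sequence, and its use in these cells was not tested.

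The array identifiers follow the genome between genes. Among neighbouring genes of the same chromosome and strand, identifier order and coordinate order ran the same way in 99.0% of 6637 pairs on the plus strand and 98.8% of 6487 pairs on the minus strand. NCOA7 and RABGAP1L lie on the plus strand, of chromosomes 6 and 1, and ADAR lies on the minus strand of chromosome 1. The files do not state the order inside a gene or the exon of a probeset, so no probeset was placed on an exon or beside a start window, and the 5′ end of a series is not named.

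The arrays were alike in the main. Over all probesets, r was 0.985 for the pair of mimic arrays, 0.984 for the pair of control arrays, and 0.966 to 0.973 for pairs across the groups. As gene means on the log2 scale, the 13 luminal epithelium markers spanned 6.54 to 12.14 in mimic means, against 6.43 to 12.40 in control means, with a median change of -0.21. Limma called 1 lower, TFF3, by -0.99 (adjusted p = 0.0417), and 4 with an intensity trend. Over all genes it called 363 in either direction, and 1594 with an intensity trend. TFF3 was not called without mimic replicate 1 (adjusted p = 0.204) or 2 (0.122). With no adjustment, p was under 0.05 for 5 luminal markers, all lower, as for 20.4% of all genes in either direction. The 7 measured leukocyte markers spanned 4.81 to 6.96 in mimic means, against 4.52 to 7.38 in control means. The 8 fibroblast markers spanned 4.71 to 6.95 in mimic means, against 4.19 to 6.83 in control means. Of the leukocyte and fibroblast markers limma called 0, and with no adjustment 1 leukocyte and 2 fibroblast markers were higher. Without control replicate 1 the fibroblast markers FAP and LUM changed by 0.95 and 0.56, and without control replicate 2 by 0.58 and 1.04. The liver gene APOA2 changed by 1.23 and 0.41 in the same 2 settings. The part of the cell type markers in the results was not tested. Genes of liver and neurons stood for background: their 146 probesets had a median of 3.76 and a 95th percentile of 6.49 over the 4 arrays. In bulk RNA, fewer cells of a type and less RNA per cell cannot be told apart.

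**Figure D1:**
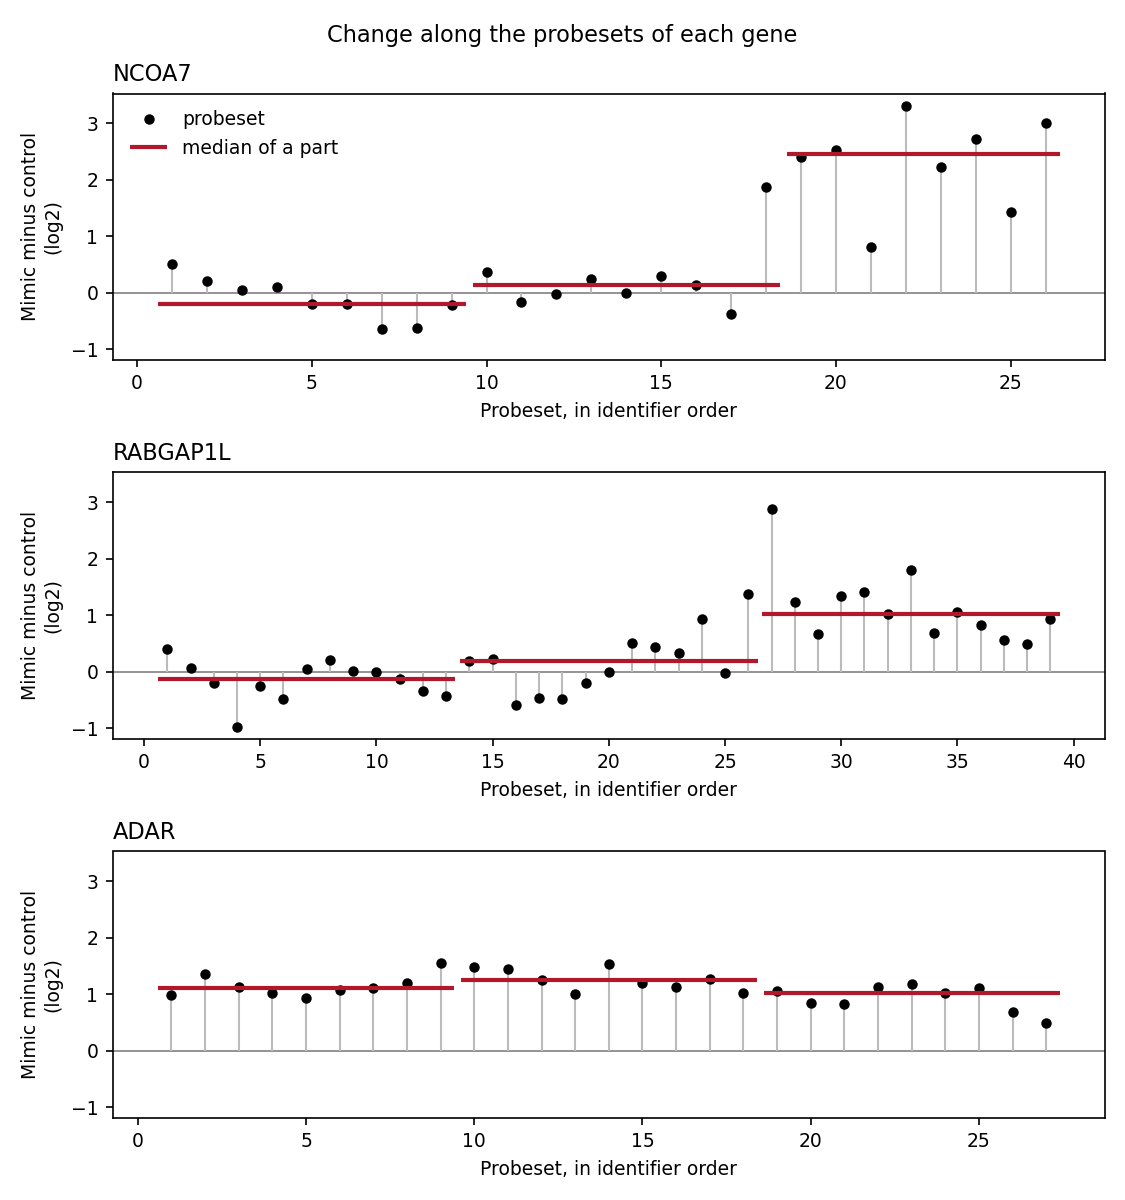
Change of every probeset of NCOA7, RABGAP1L and ADAR, as the mean of 2 mimic arrays minus the mean of 2 control arrays on the log2 scale (y axis), in identifier order (x axis). Bars in red are the median of each of 3 near-equal parts; they stand at -0.20, 0.14 and 2.46 for NCOA7, at -0.13, 0.20 and 1.03 for RABGAP1L and at 1.11, 1.26 and 1.01 for ADAR.

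NCOA7 was higher on the mimic arrays in its last stretch of identifiers and near the control level elsewhere. Its probesets were divided in identifier order into 3 near-equal parts, a division that uses no values. The median change of the 9 probesets of the first part was -0.20 on the log2 scale, with a range from -0.64 to 0.52. The 9 of the middle part had a median of 0.14. The 8 of the last part had a median of 2.46, from 0.80 to 3.31, and both mimic arrays lay above both control arrays on all 8. Over all named probesets of the table, 20.6% had both mimic arrays above both control arrays and 23.6% had both below. The choice of the gene used the same change, so nothing is read from the counts against these shares.

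A division by the values themselves sets its sides apart by construction, so it only describes where the change lies. A least-squares split of the changes, made after they were seen and with at least 3 probesets on each side, fell after the 17th probeset. The 17 before it had a median change of 0.00 and a highest of 0.52, and the groups overlapped on 11 of them, with the mimic arrays above on 3 and below on 3. The 9 after it had a median of 2.40, and the mimic arrays were above on all 9. The split fell at the same place for each of the 4 pairs of a mimic and a control array, which share arrays with one another, and accounted for 75.0% to 80.7% of the variance of the change over probesets.

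The probesets on either side of the split show the step. Probeset 2924579, the 17th, read 6.30 and 6.45 on the mimic arrays, against 6.88 and 6.62 on the control arrays. Probeset 2924584, the next in order, read 6.75 and 6.89 on the mimic arrays, against 4.52 and 5.39 on the control arrays. On the first of these both mimic arrays were lower, by 0.38 on average, and on the second both were higher, by 1.86.

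The strongest probeset of NCOA7 was 2924592, with 9.10 and 9.43 on the mimic arrays, against 5.96 and 5.94 on the control arrays. The difference of 3.31 is a 9.91-fold higher signal and far exceeds the spread within each group. Probeset 2924596, the last in order, read 7.30 and 6.82 on the mimic arrays, against 3.85 and 4.25 on the control arrays, an 8.06-fold difference. These groups do not overlap. Probeset 2924594 read 6.72 and 6.83 on the mimic arrays, against 3.99 and 4.13 on the control arrays, a 6.57-fold difference. Probeset 2924588 read 7.64 and 7.22 on the mimic arrays, against 5.28 and 4.53 on the control arrays, a 5.75-fold difference. Probeset 2924585 read 6.92 and 6.77 on the mimic arrays, against 4.53 and 4.37 on the control arrays, a 5.26-fold difference. On all 3 the groups stay apart.

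The remaining members of the stretch were higher by less. Probeset 2924593 read 8.71 and 8.72 on the mimic arrays, against 6.28 and 6.71 on the control arrays, a change of 2.22. Probeset 2924595 read 6.94 and 6.61 on the mimic arrays, against 5.43 and 5.26 on the control arrays, a change of 1.44. Probeset 2924590 read 4.81 and 4.62 on the mimic arrays, against 4.08 and 3.74 on the control arrays, a change of 0.80. The groups do not overlap on any of these, but neither mean of 2924590 exceeded the background's 95th percentile.

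Signal over background differed along NCOA7. Of the 9 probesets after the split, 8 exceeded the background's 95th percentile in the mimic mean and 1 in the control mean. Of the 17 before it, 0 did so in the mimic mean and 1 did in the control mean. A fall or a small change in that stretch would be hard to see at this signal. Control means lay between 2.89 and 6.75 before the split and between 3.91 and 6.50 after it, where changes of 0.80 to 3.31 were seen. A fold against a level near background understates the change.

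RABGAP1L too was higher on the mimic arrays in its last identifiers and near the control level in its first. The 13 probesets of the first part had a median change of -0.13, from -0.97 to 0.40. The middle part of 13 had a median of 0.20, from -0.59 to 1.38. The last part of 13 had a median of 1.03, from 0.49 to 2.88, and 13 of 13 were higher in the mimic mean. Both mimic arrays were above both control arrays on 12 of them. In the first part they were above on 2, below on 4 and overlapping on 7. Over all named probesets they were above on 20.6% and below on 23.6%, and nothing is read from the counts here either.

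The least-squares split for RABGAP1L fell after the 25th probeset. Its 25 earlier probesets had a median change of 0.00 and its 14 later ones of 1.04. By single pairs of arrays the split fell after the 20th, the 22nd, the 25th and the 25th, with 43.0% to 58.0% of the variance, so its position is less sharply set than in NCOA7. Median changes after the 25th were 0.99 to 1.26 by pair and those up to it -0.07 to 0.10.

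Probeset 2368134, the 27th, carried the highest change of RABGAP1L. It read 8.52 and 8.43 on the mimic arrays, against 5.39 and 5.81 on the control arrays, a 7.36-fold difference. Its groups lie far apart. The next highest was 2368172, with 5.67 and 5.94 on the mimic arrays, against 3.55 and 4.47 on the control arrays, a change of 1.80. Probeset 2368163 read 5.87 and 6.17 on the mimic arrays, against 4.84 and 4.36 on the control arrays, a change of 1.42. The 26th, 2368130, read 6.03 and 5.70 on the mimic arrays, against 3.89 and 5.08 on the control arrays, a change of 1.38 with a wide spread between the controls. On 2368172, 2368163 and 2368130 the groups do not overlap, but neither mean exceeded the background's 95th percentile, so the sizes of these changes have no firm order.

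The last identifiers of RABGAP1L had smaller changes than the 27th. Probeset 2368175 read 8.06 and 8.02 on the mimic arrays, against 6.91 and 7.06 on the control arrays, a change of 1.06. Probeset 2368178 read 9.23 and 8.96 on the mimic arrays, against 8.63 and 8.58 on the control arrays, a change of 0.49 and the smallest of the last part. Both sets of arrays stay apart on each. The 1 overlap of the last part was 2368152, at 4.93 and 5.15 on the mimic arrays, against 5.41 and 3.35 on the control arrays, where the control arrays differed by 2.07.

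At the other end of RABGAP1L most probesets read high on every array. Probeset 2367978 read 9.58 and 9.70 on the mimic arrays, against 9.77 and 9.91 on the control arrays, a change of -0.20. Probeset 2367990 read 9.51 and 9.48 on the mimic arrays, against 9.19 and 9.37 on the control arrays, a change of 0.21. The groups stay apart on both, in opposite directions. Of the 13 probesets of the first part, 11 exceeded the background's 95th percentile in the mimic mean and 11 in the control mean. Probeset 2367985 of that part did so in neither, at 4.74 and 4.88 on the mimic arrays, against 4.84 and 5.72 on the control arrays. In the middle part 1 did so in either group, and in the last part 8 did in the mimic mean and 4 in the control mean. The lowest change of the gene, -0.97, was that of 2367980, at 7.47 and 6.88 on the mimic arrays, against 7.91 and 8.38 on the control arrays. Inside the identifier range of RABGAP1L, 2 further probesets carry no gene name. They were not counted, and their changes were 0.74 and 0.25.

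**Figure D2:**
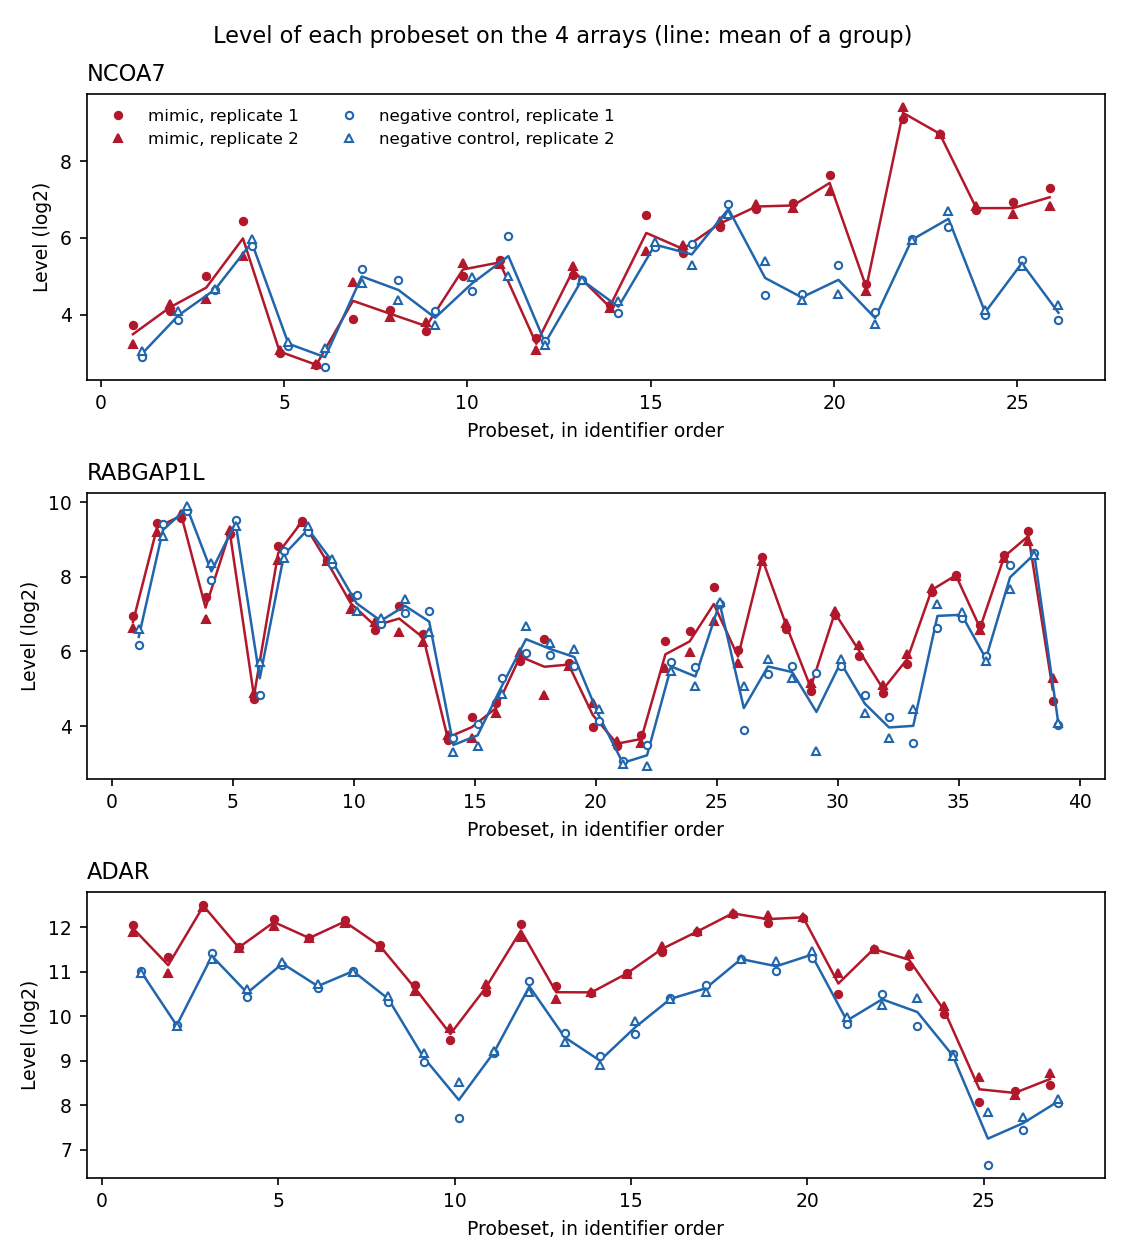
Level of every probeset on the log2 scale (y axis) in identifier order (x axis), with 2 mimic arrays in filled red and 2 control arrays in open blue symbols, and a line through each group's mean. The groups overlap on 11 of the first 17 probesets of NCOA7 and on 15 of the first 25 of RABGAP1L, where changes range from -0.97 to 0.94. Beyond them both mimic arrays are above on all 9 of NCOA7 and on 13 of 14 of RABGAP1L. The groups run apart along all 27 probesets of ADAR.

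ADAR was higher on the mimic arrays along its whole length. Both mimic arrays were above both control arrays on 27 of 27 probesets, with changes from 0.50 to 1.55. Over all named probesets both were above on 20.6% and below on 23.6%. The gene was chosen on the same change, so nothing is read from its count. The medians of the 3 parts were 1.11, 1.26 and 1.01. Changes of at least 1 on the log2 scale were seen on 21 of 27 probesets, as on 8 of 26 of NCOA7, 8 of 39 of RABGAP1L and 1.84% of all named probesets of the table.

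All 27 ADAR probesets exceeded the background's 95th percentile in both means. The control arrays differed by up to 1.18, on 2436786, and the mimic arrays by up to 0.55. Probeset 2436757 read 12.51 and 12.45 on the mimic arrays, against 11.41 and 11.29 on the control arrays, a change of 1.13. Probeset 2436766 had the highest change, 1.55, with 10.69 and 10.57 on the mimic arrays, against 8.98 and 9.17 on the control arrays. Probeset 2436773 read 10.52 and 10.56 on the mimic arrays, against 9.10 and 8.91 on the control arrays, a change of 1.53. On each of these the groups are separated by many times the difference within a group.

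The last 3 identifiers of ADAR held its smallest changes, at the final 2, beside 1 near the gene's median. Probeset 2436786 read 8.09 and 8.63 on the mimic arrays, against 6.66 and 7.84 on the control arrays, a change of 1.11. Probeset 2436787 read 8.33 and 8.23 on the mimic arrays, against 7.45 and 7.75 on the control arrays, a change of 0.68. Probeset 2436791, the last, read 8.45 and 8.73 on the mimic arrays, against 8.05 and 8.13 on the control arrays, a change of 0.50. The mimic arrays were higher on each, and no probeset of ADAR stayed at the control level. A split of ADAR fell after the 7th, 15th, 18th or 24th probeset by pair of arrays and accounted for 7.55% to 50.1% of the variance, so no step was set by these arrays.

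**Figure D3:**
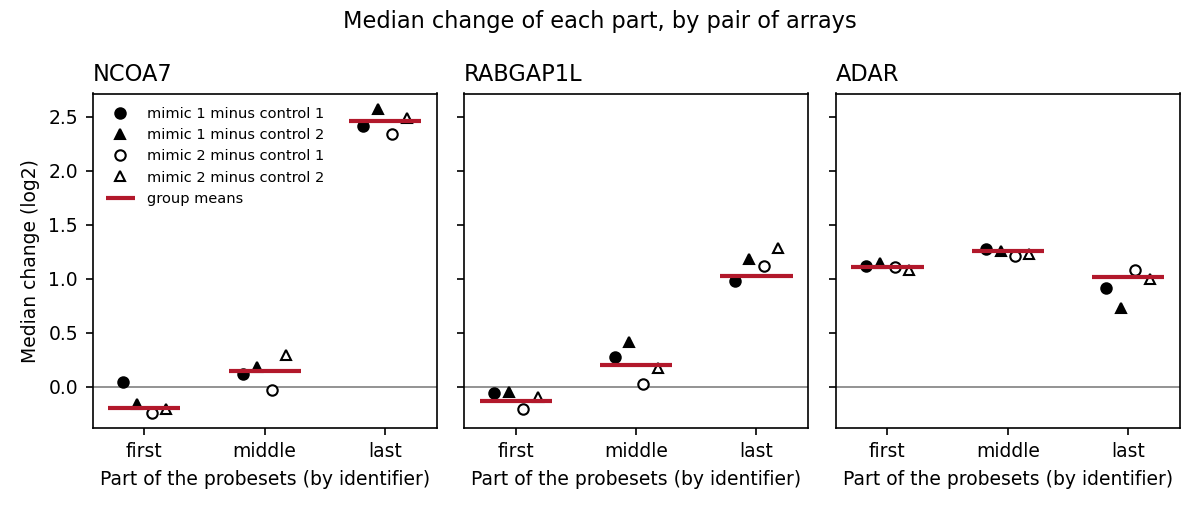
Median change on the log2 scale (y axis) of the first, middle and last of 3 near-equal parts of each gene's probesets (x axis), for each of the 4 pairs of a mimic and a control array (symbols, which share arrays) and for the group means (red bars). The last part lies between 2.34 and 2.57 in NCOA7 and between 0.97 and 1.29 in RABGAP1L, and the 3 parts of ADAR lie between 0.73 and 1.27.

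Gene means hide these differences. The mean of NCOA7 was taken over the 21 of its 26 probesets past a filter on dim signal, a mean over the 4 arrays of at least 4.08, the 25th percentile of the table. All 5 that missed it lay before the split. The gene mean was 6.03 and 5.95 on the mimic arrays, against 5.07 and 5.02 on the control arrays, a change of 0.95. With a filter at the table's median it was 1.92, and with no filter 0.76. The RABGAP1L mean, over 35 of 39 probesets, was 6.94 and 6.82 on the mimic arrays, against 6.47 and 6.51 on the control arrays, a change of 0.39. The ADAR mean, over all 27, was 11.04 and 11.08 on the mimic arrays, against 9.89 and 10.01 on the control arrays, a change of 1.11, or 2.16-fold. In each gene the mimic arrays lay above the control arrays.

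The SD of the change over a gene's probesets past the filter gives the unevenness as 1 value. It was 1.29 in NCOA7, 0.81 in RABGAP1L and 0.24 in ADAR, and its median was 0.32 over the 6695 genes with at least 10 such probesets. Of those genes, 15 had a larger SD than NCOA7, 54 than RABGAP1L and 5391 than ADAR. Among the 5974 genes whose median change lay within 0.5 of 0, a window set after the values were seen, 0 had a larger SD than NCOA7 and 2, NCOA7 and PHYHD1, had a larger one than RABGAP1L. Since the genes were chosen on the same change, these ranks are a description. Over all genes, the F test of limma's diffSplice called unequal change in 3.01% of 14389, and it is not used as a test of the 3 genes.

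Comparison genes of RNA sensing were higher on every probeset past the filter. RIGI, which senses RNA with a 5′ triphosphate, had an SD of 0.84 over 21 probesets, and IFIH1, which senses long double-stranded RNA, had 0.99 over 25. Their lowest changes were 1.21 and 1.63, so all of their probesets past the filter were higher by at least 1. EIF2AK2, the kinase PKR that halts translation on double-stranded RNA, had an SD of 0.45 over 19 probesets and a lowest change of 1.41. Past the same filter, NCOA7 and RABGAP1L had lowest changes of -0.64 and -0.97. The filter reads the mean over the 4 arrays, so a probeset dim on control arrays can pass on its mimic level. Dim probesets with little change can drop out, so this contrast depends in part on the filter. With no filter the gene mean of RIGI changed by 4.05, against 4.23 with it, and that of IFIH1 by 3.78 either way.

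**Figure D4:**
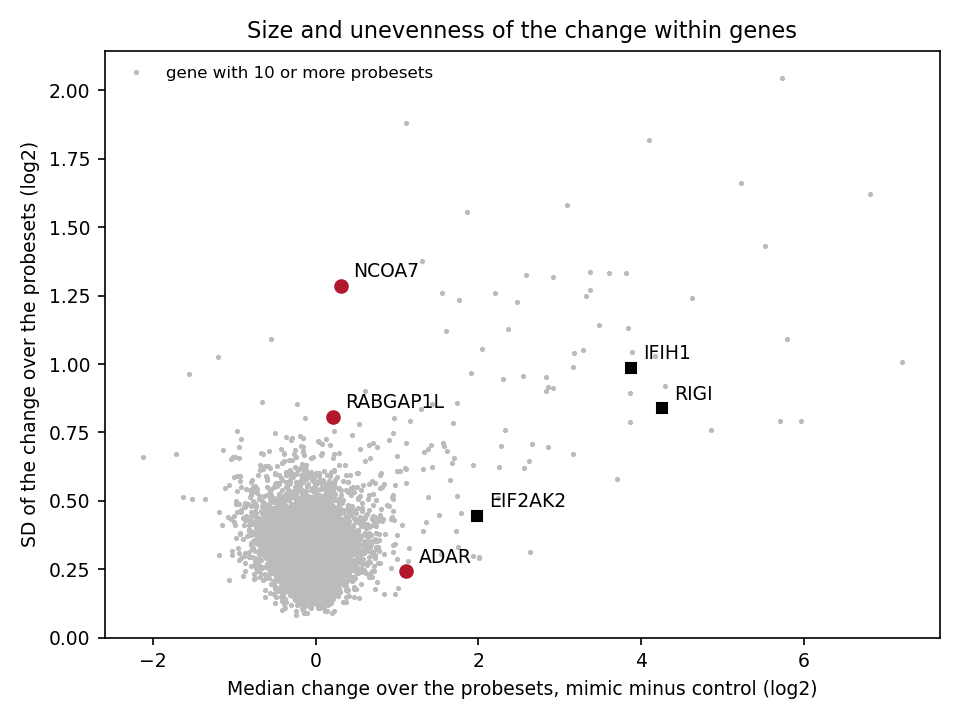
SD of the change over a gene's probesets (y axis) against the median change over them (x axis), both on the log2 scale, for 6695 genes with at least 10 probesets past the filter (grey). NCOA7, RABGAP1L and ADAR are in red and RIGI, IFIH1 and EIF2AK2 in black. NCOA7 and RABGAP1L stand above the bulk at medians of 0.31 and 0.21, and ADAR lies low at 1.11.

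Genes most like each of the 3 were found by the distance in median change and SD of change, over the 2 groups of arrays. The distance does not use the order of the probesets, so a near gene need not change in 1 stretch. For NCOA7 the nearest was CLEC7A, the receptor dectin-1 for fungal glucans, with a median of 0.60 and an SD of 0.90. RABGAP1L and then ATP2B3, a calcium pump of the plasma membrane, followed, at distances of 0.49 and 0.53. No gene lay as near to NCOA7 as those found for the others. For RABGAP1L the nearest were ATP2B3, ALG13, which acts in protein glycosylation, and IL1RAP, the accessory chain of the interleukin-1 receptor, at distances of 0.05 to 0.12. For ADAR they were ERAP1, which trims peptides for MHC class I, TMEM62 and B4GALT5, a galactosyltransferase, at 0.04 to 0.12. ERAP1 had a median change of 1.14 and an SD of 0.28 over 25 probesets.

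Genes of RNA sensing around ADAR were followed from a list. By limma on gene means, with Benjamini-Hochberg adjustment over 15719 genes and a threshold of 0.05, 8 of 15 measured genes of double-stranded RNA sensing rose, 7 did not pass and 0 fell. With no filter 9 were called higher and 1 lower, and with an intensity trend 9 higher and 2 lower. Over all genes those 2 fits called 1433 and 1594 in either direction. With the filter and no trend, 1.52% of all genes were called higher and 0.789% lower. The list median was 1.98, against 0.00 over all genes. OAS2, which makes the messenger that activates RNase L, averaged 11.71 ± 0.14 on mimic arrays and 4.59 ± 0.01 on control arrays (SD, n = 2 each) and rose by 7.12 (limma adjusted p = 0.000122). OAS1 and OAS3, of the same family, rose by 5.97 and 3.74, and IFIH1 by 3.78. At an unadjusted p under 0.05, 9 genes of the list were higher and 2 lower, against 20.4% of all genes in either direction. By the same test 38 of 39 measured interferon-stimulated genes rose and 0 fell, with a median of 3.78. IFIT3 and IFIT2, antiviral proteins of the tetratricopeptide repeat family, rose by 7.66 and 6.79, and OASL, a relative of OAS1 without its enzyme activity, by 5.51. The 1 that did not pass was XAF1, an antagonist of inhibitors of apoptosis, with 1.23 (limma adjusted p = 0.0979), named after its value was seen. With no filter, an intensity trend, the replicate block or either control array left out, 39 of 39 were called higher.

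Relatives of the 3 genes were not called, by a test that called 1.52% of all genes higher and 0.789% lower. Short lists would hold few calls at those shares, so nothing is read from their absence. Of 6 measured deaminases and relatives of ADAR, limma called 0 in either direction and 0 at an unadjusted p under 0.05, with ADAT3 and ADAT2, tRNA deaminases, at -0.20 and 0.16 (limma adjusted p = 0.488 and 0.53). The list median was -0.04. Of 3 measured genes with a TLDc domain, limma called 0, and 1, OXR1, had an unadjusted p under 0.05. So had 20.4% of all genes, in either direction. OXR1, which protects against oxidative damage, averaged 8.04 ± 0.07 on mimic arrays and 8.60 ± 0.17 on control arrays (SD, n = 2 each), a difference of -0.56 (limma adjusted p = 0.116). TBC1D24 had -0.39 (adjusted p = 0.348). Without control replicate 1 OXR1 and TBC1D24 changed by -0.68 and -0.65, and without control replicate 2 by -0.45 and -0.13. OXR1 was called lower with no filter (limma adjusted p = 0.03) and with an intensity trend (0.0231). Over all genes those 2 fits called 1433 and 1594 in either direction.

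The V-ATPase, which the short NCOA7 protein binds, was measured by 15 subunit genes. Over all genes limma called 363 in either direction. The count was 1433 with no filter, 1594 with an intensity trend, 535 with quantile normalization and 498 with the replicate block. Of the subunits limma called 0. With no adjustment, p was under 0.05 for 4, all lower, and for 20.4% of all genes in either direction. ATP6V1C1 and ATP6V1A, of the cytosolic sector, had -0.48 and -0.49 (limma adjusted p = 0.115 and 0.12), and the list median was -0.09. Both were called lower with no filter (adjusted p = 0.0387 and 0.0392) and with an intensity trend (0.0138 and 0.0173). Over the list, 2 subunits were called lower with no filter and 3 with an intensity trend. The list median was -0.17 without control replicate 1 and -0.12 without control replicate 2. Of 22 other TBC domain genes limma called 0, and the list median was -0.17. With no adjustment, 1 was higher and 7 lower. TBC1D2, which acts on Rab7, averaged 6.07 ± 0.11 on mimic arrays and 6.80 ± 0.09 on control arrays (SD, n = 2 each), a difference of -0.72 (adjusted p = 0.0666). TBC1D2 was called lower with the replicate block (limma adjusted p = 0.049), with quantile normalization (0.0482), with no filter (0.00802) and with an intensity trend (0.0191). Without control replicate 1 TBC1D2 changed by -0.79, and without control replicate 2 by -0.66. TBC1D16 had -0.59 (adjusted p = 0.102), and was called lower with no filter (0.0225) and with an intensity trend (0.0289). Over the list, 4 genes were called lower under each of those 2 settings, and 1 each with quantile normalization and with the replicate block.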

How the data were processed

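Exon-level probeset values came from 2 arrays of mimic-transfected and 2 of control-transfected T-47D cells. Per the submitters' processing notes, the deposited log2 values were made by the authors with Partek and the RMA method on genome build hg18, with no versions or order of steps. The 4 columns do not share 1 distribution (interquartile range 4.18 and 4.32 on mimic, 4.25 and 4.52 on control arrays), so differences between arrays in scale remain in the values. They were used as deposited. No depth applies to arrays, and their small number limits the precision.

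Symbols came from GEO's platform annotation. The 3 genes were matched exactly, and 25769 other probesets were updated through RefSeq synonyms, 190058 being current already. Probesets with several symbols (2335) or none (13364) were not used for genes. In R 4.3.3, limma 3.58.1 gave two-sided tests of gene means (functions lmFit and eBayes) and diffSplice, over 163774 probesets past the 25th percentile of the table (4.08), in 15719 genes. Scripts were tested on simulated data. Plots used matplotlib 3.10.9 in Python 3.11.15. The genes, lists and tests were chosen with earlier results of these data known. Genes named are the 3 members, up to 4 called members of each list or 2 with the smallest p, the 3 nearest genes of each member, and RNA sensors named for comparison. Alternatives were quantile normalization, equal array medians, other filters, left-out arrays, the replicate block, an intensity trend, medians of probesets and other divisions of a gene. The data analysed hold no probe coordinates, so motif windows and probesets were not joined.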

Additional observations from a re-analysis of the deposited data

How the results depend on the processing

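ADAR changed by 1.05 to 1.17 and RABGAP1L by 0.33 to 0.45 with 1 array left out, and NCOA7 by 0.91 to 1.03. TFF3 was not called as a median of probesets (adjusted p = 0.105). The NCOA7 gene mean was 0.76 with no filter, 1.92 with a filter at the table's median and 1.08 as the median of probesets. That of RABGAP1L was 0.31 with the stricter filter. The filter sets which probesets enter a mean. The spread between the parts of a gene, the highest minus the lowest median, was 2.66 in NCOA7, 1.16 in RABGAP1L and 0.24 in ADAR, and with 1 array left out 2.32 to 2.78, 0.91 to 1.39 and 0.13 to 0.43. Normalization, the filter, 4 parts and means in place of medians moved it by less than the spread between arrays.

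Counts over all genes moved more, and the cause was not tested. Limma called 363 genes, 1433 with no filter, 1594 with an intensity trend and 162 to 1673 with 1 array left out. Of single probesets 1503 were called, 4715 with an intensity trend and 602 to 923 with 1 array left out. Unequal change was called in 433 genes, 256 with the stricter filter and 83 to 241 with 1 array left out. The replicate number shared by the groups is not said to mark a batch, and same-numbered arrays deviated together with r = 0.281 over probesets. With the replicate block 498 genes were called, 338 of them also without it, with 1147 probesets and 1214 genes of unequal change. Changes of ALG13 (-0.53 with the stricter filter) and IL1RAP (-0.093 with it, -0.072 as a median of probesets) turned sign. Signal over background limits the probesets before the NCOA7 split and the middle part of RABGAP1L.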
